A study of Mus musculus with 15 samples.

Results

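The nuclear-encoded genes of oxidative phosphorylation, the pathway that makes most of the ATP of a beating heart, were examined in mouse hearts after 5 months of methamphetamine (meth) or phosphate-buffered saline (PBS). Members were all genes whose probe accession maps to a symbol starting with Ndufa, Ndufb, Ndufc, Ndufs, Ndufv, Uqcr, Cox4 to Cox8 or Atp5, together with Sdha to Sdhd, Cyc1 and Cycs. The rule gave 93 genes on 119 probes, out of 18350 genes with a symbol on the array. By symbol they fell into complex I (37 genes), its assembly factors (7 genes named Ndufaf, which the rule takes in although they are no subunits), complex II (4), complex III with Cyc1 (9), cytochrome c (1), complex IV (18) and complex V (17). Of these, 92 were well above background on at least 3 arrays and were tested. The exception was Cox8c, which was well above background on 0 arrays.

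The hearts came from C57BL/6 mice, 1 mouse to an array. Methamphetamine hydrochloride was given to 4 males and 4 females in rising weekly intraperitoneal doses up to 40 mg/kg, and 4 males and 3 females received PBS instead. The males came from 2 trials, each with 2 meth and 2 PBS hearts, whereas the titles place every female in trial 1. RNA came from homogenised heart tissue, so that fewer cells of a type and less RNA per cell cannot be told apart. Whether whole hearts were used is not stated.

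Oxidative phosphorylation runs through the inner mitochondrial membrane. Complexes I and II take electrons from NADH and succinate, complex III passes them to cytochrome c, complex IV hands them to oxygen, and complex V, the ATP synthase, uses the proton gradient that complexes I, III and IV build. Heart muscle is rich in mitochondria and carries these transcripts in abundance. Some subunits of complex IV exist as heart and muscle isoforms (Cox6a2, Cox7a1, Cox8b) beside isoforms of most other tissues (Cox6a1, Cox7a2, Cox8a). Subunits encoded in mitochondrial DNA had no probe that could be matched by accession, so the results cover nuclear-encoded genes only.

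Transcription of many of these genes is known to depend on the factors NRF1 and GABP, the latter of the ETS family. In the RefSeq promoters (build GRCm38.p6, 250 bases before to 50 after a gene's start), 76 of the 93 members matched by symbol, with 81 promoters. The NRF1 core GCATGCGC on either strand was in 16.0% of them (13 of 81) and in 2.71% of all 32851 promoters in that table. The ETS core CCGGAAG on either strand was in 22.2% (18 of 81) and in 8.86% of all promoters, and 5 promoters of members held both. These are matches of letters and do not show binding. Either core was in 26 of the 81 promoters. Among genes with low p-values described further on, Cox7b2, Ndufab1, Ndufb8 and Ndufaf2 had neither core. Ndufaf4 and Atp5g2 held the NRF1 core, and Ndufb6 and Atp5h the ETS core. Uqcrc2 and Atp5mpl had no promoter matched by symbol. The promoters below all hold a core, so they do not represent the members or the genes with low p-values. They are shown because they stand for the carrier between complexes III and IV, for genes with low p-values, and for promoters with both cores. Each runs 5′ to 3′ on the strand of its gene, with the matched letters in capitals.
Cycs (chr6:50566520-50566819, minus strand): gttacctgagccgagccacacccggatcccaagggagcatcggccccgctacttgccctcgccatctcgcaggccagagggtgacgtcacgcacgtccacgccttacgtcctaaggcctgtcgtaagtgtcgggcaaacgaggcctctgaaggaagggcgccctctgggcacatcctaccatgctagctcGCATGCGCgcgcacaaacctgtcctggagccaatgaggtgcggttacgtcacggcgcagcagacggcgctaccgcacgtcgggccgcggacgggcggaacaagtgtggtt
Ndufaf4 (chr4:24897833-24898132, plus strand): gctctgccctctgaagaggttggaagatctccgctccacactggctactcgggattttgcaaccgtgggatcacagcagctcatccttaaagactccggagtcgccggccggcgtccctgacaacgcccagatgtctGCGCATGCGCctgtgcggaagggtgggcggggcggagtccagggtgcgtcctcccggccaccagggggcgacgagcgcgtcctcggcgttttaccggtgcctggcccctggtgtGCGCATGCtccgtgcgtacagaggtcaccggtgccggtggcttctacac
Ndufb6 (chr4:40279372-40279671, minus strand): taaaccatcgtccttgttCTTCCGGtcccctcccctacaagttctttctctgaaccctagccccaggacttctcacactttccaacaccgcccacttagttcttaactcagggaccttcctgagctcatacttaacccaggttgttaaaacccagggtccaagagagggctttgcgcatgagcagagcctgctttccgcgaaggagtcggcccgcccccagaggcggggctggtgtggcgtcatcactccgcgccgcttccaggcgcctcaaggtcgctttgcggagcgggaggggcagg
Sdhb (chr4:140961021-140961320, plus strand): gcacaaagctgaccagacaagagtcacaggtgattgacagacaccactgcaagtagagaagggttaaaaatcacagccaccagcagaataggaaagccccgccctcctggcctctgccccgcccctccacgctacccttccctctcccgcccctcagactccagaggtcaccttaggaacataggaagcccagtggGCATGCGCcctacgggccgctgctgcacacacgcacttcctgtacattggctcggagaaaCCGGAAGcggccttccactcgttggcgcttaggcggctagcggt
Cox6a1 (chr5:115348909-115349208, minus strand): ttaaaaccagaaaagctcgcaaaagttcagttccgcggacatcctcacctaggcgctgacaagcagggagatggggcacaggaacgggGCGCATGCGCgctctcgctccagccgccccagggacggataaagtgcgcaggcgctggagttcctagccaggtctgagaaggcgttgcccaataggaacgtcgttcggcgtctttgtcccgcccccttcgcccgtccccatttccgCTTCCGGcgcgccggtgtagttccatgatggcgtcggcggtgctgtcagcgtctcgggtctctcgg
In the Cycs promoter the NRF1 core begins 60 bases before the start. In Ndufaf4 and in Cox6a1 the core overlaps its own reverse complement. Sdhb and Cox6a1 hold both cores, whereas Ndufb6 holds the ETS core alone.

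No gene of this pathway passed the threshold of an adjusted p under 0.05 in any of the 5 comparisons made (limma, Benjamini-Hochberg adjustment over all 28358 probes tested). All 12 cardiomyocyte markers listed were well above background on at least 1 array of each group. Arrays differed in ways that the groups do not explain. They were hybridised on 4 slides, and slide 4, which held female meth replicates 3 and 4 and female PBS replicate 3, had a 75th percentile signal of at least 461, against at most 424 on the other slides. The share of probes well above background ran from 61.3% to 71.4%. Male meth hearts also carried secretory airway transcripts: 5 of the 5 tested airway markers rose in males, and their mean normalized log2 signal lay between 2.09 and 4.25 on male meth arrays and between -4.82 and -4.29 on male PBS arrays. On female meth arrays it lay between -2.69 and -0.77, and on female PBS arrays between -3.26 and -2.63. In females 1 of the 5 markers passed the threshold as higher in meth hearts. Bpifa1 was well above background on no PBS array of either sex. The part of these differences in the results below was not tested.

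Male meth against male PBS hearts gave small log2 fold changes, nearly all on the same side of 0. Of the 92 genes, 91 had a log2 fold change below 0 (median -0.16, a ratio of 0.892), whereas the median of all 14217 genes tested was -0.02. None of the 92 passed the threshold, where 1.34% of all genes did. At an unadjusted p under 0.05, 18 of the 92 members were lower (19.6%, against 5.84% of all genes) and 0 were higher. The methods' t-test, at their threshold, counted 57 members when paired (62.0%, against 17.2% of all genes) and 16 unpaired (17.4%, against 15% of all genes), and 0 in either form after adjustment. Pairing by replicate number is an assumption here and in females. For 10 members every meth heart lay below every PBS heart (10.9%, against 5.76% of all genes).

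**Figure D1:**
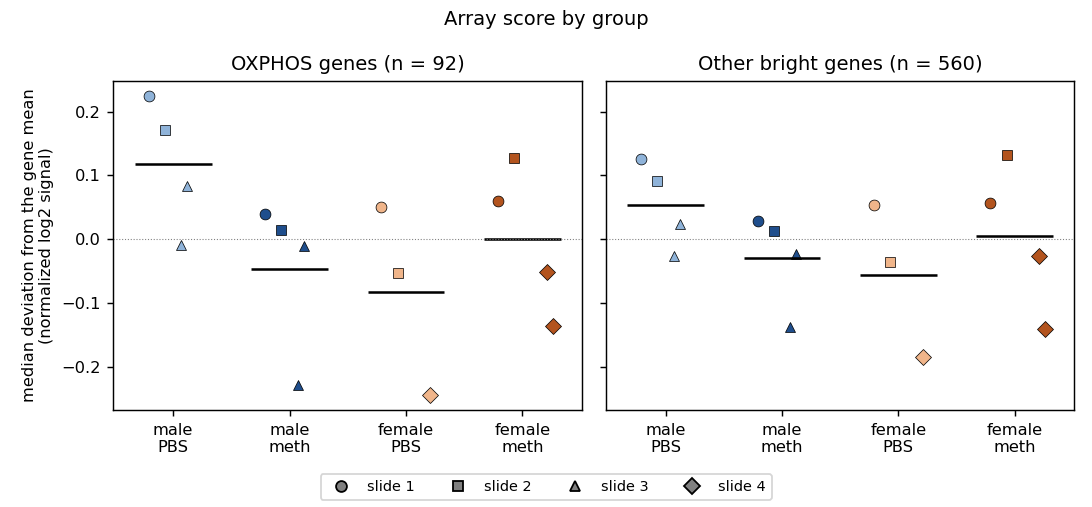
Array score for 92 tested oxidative phosphorylation (OXPHOS) genes (left) and for 560 other genes with a mean normalized log2 signal of 5 or more (right). The y axis is the median, over genes, of the deviation from the mean of the 15 arrays (log2), points are arrays with a marker for the slide, and lines are group means. Among the OXPHOS genes the male PBS arrays run from -0.01 to 0.22 and the male meth arrays from -0.23 to 0.04.

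The arrays were also scored 1 by 1. Taken as the median deviation of the 92 genes from their mean over all arrays, the 4 male meth hearts scored 0.04, 0.01, -0.23 and -0.01 (mean -0.05 ± 0.12, SD, n = 4), and the 4 male PBS hearts 0.22, 0.17, -0.01 and 0.08 (0.12 ± 0.10, SD, n = 4). The 2 groups overlapped, because the trial 2 hearts of both lay lower than those of trial 1. Within each slide the meth hearts were the lower ones. The median difference was -0.18 on slide 1, where 88 genes were below 0, -0.16 on slide 2 (85 genes) and -0.15 on slide 3 (88 genes). Fitted within each trial it was -0.17 in trial 1 and -0.15 in trial 2, and 86 genes were below 0 in both trials. The response differed between the trials past the threshold in 0 of the 92 members and in 0 of all 14217 genes. At an unadjusted p under 0.05 it differed in 0 members and in 600 of all genes. With 2 meth and 2 PBS hearts in each trial, these counts cannot show that the trials agree.

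A smaller shift to the same side was present in other bright genes. The 560 other genes with a mean normalized log2 signal of 5 or more, a level that 79 members reached, had a median male log2 fold change of -0.09, with 447 of them below 0. Its size also depended on the normalization. Under quantile normalization the median of the members was -0.08 and that of the other bright genes -0.01. Cyclic loess, which removes differences that follow the signal level, gave -0.06 and 0.003, with 78 of 92 members below 0. The excess of members at an unadjusted p under 0.05 (either direction) was absent under both. Quantile normalization had 8 of 92 (8.70%, against 12.4% of all genes). Cyclic loess had 7 (7.61%, against 12.9% of all genes).

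By complex, the male medians lay close together. Complex I had a median of -0.17, with 37 of 37 genes below 0 and 9 of them at an unadjusted p under 0.05. Complex V had -0.17 (17 of 17 below 0, 3 at an unadjusted p under 0.05), complex III -0.14 (9 of 9, 0), complex IV -0.13 (16 of 17, 2) and complex II -0.10 (4 of 4, 1). The 7 complex I assembly factors had a median of -0.18, all of them below 0. Beside these counts, 5.84% of all genes were lower at that unadjusted p. Below 0 were 55.1% of all genes and 79.8% of the other bright genes.

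**Figure D2:**
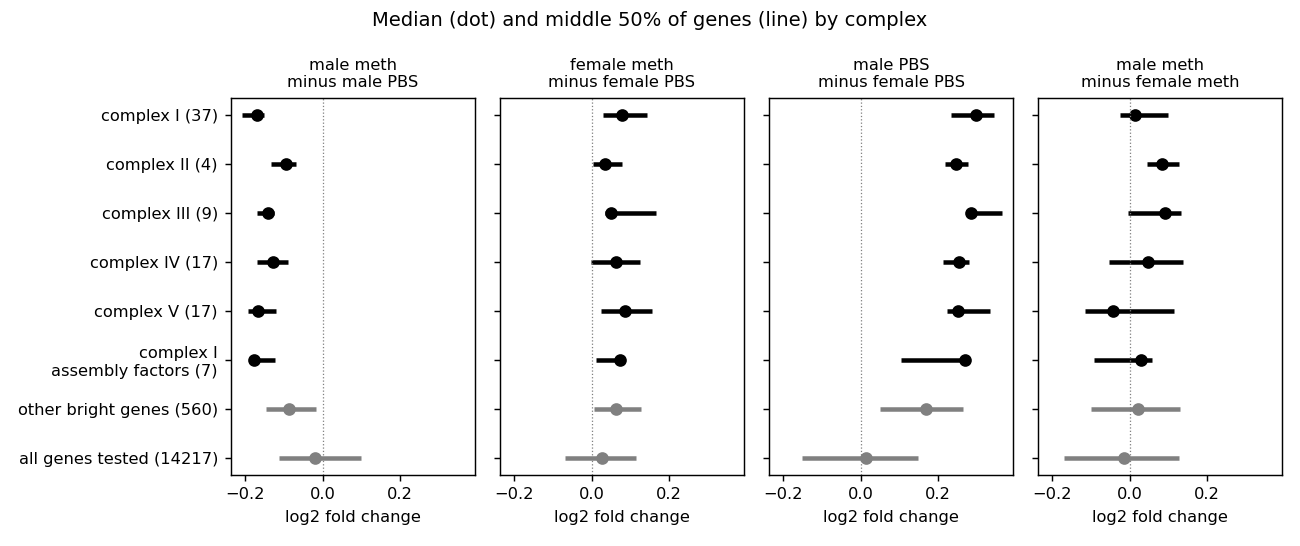
Median (dot) and middle 50% (line) of the log2 fold changes of the genes in each complex, in grey for the other bright genes and for all genes tested, with the number of genes in brackets and a panel for each of 4 comparisons. Complexes I to V lie below 0 in the male comparison (medians -0.17 to -0.10) and above 0 for male against female PBS (0.25 to 0.30).

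The lowest p-values in males belonged to Cox7b2, a paralog of the complex IV subunit Cox7b, to Ndufaf4, an assembly factor of complex I, and to Ndufab1, the mitochondrial acyl carrier protein, which is also a complex I subunit. Cox7b2 had a normalized log2 signal of -4.87, -4.54, -4.36 and -4.39 in the male meth hearts and of -4.01, -3.97, -3.64 and -4.14 in the male PBS hearts. Every meth heart was below every PBS heart. Its log2 fold change was -0.60 (SE 0.16, limma adjusted p = 0.117, exact two-sided permutation p = 0.0286, the smallest that 4 against 4 allow). That permutation p only restates the lack of overlap, seen in males in 828 genes above and 819 below among the 14217 tested. Cox7b2 was picked for its low p. It was a dim probe, well above background on 13 of the 15 arrays.

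Ndufaf4 gave 3.67, 3.57, 3.50 and 3.68 in male meth and 3.86, 3.83, 4.05 and 4.07 in male PBS hearts. These groups did not overlap either, and the log2 fold change was -0.35 (SE 0.09, limma adjusted p = 0.124). Ndufab1 had 7.17, 7.18, 6.78 and 7.002 in male meth against 7.46, 7.40, 7.16 and 7.05 in male PBS hearts. Here the groups overlapped, since the trial 2 controls were below the trial 1 meth hearts, and with the trial in the model the log2 fold change was -0.23 (SE 0.07, limma adjusted p = 0.185).

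Atp5c1, the gamma subunit in the central stalk of the ATP synthase, is named after its values were seen, as its call depended on the batch term. Its signal was 8.98, 8.85, 8.71 and 8.64 in male meth and 9.18, 9.15, 8.87 and 9.01 in male PBS hearts, so that every meth heart was below the PBS hearts of its slide although the groups overlapped. The log2 fold change of -0.26 had an adjusted p of 0.476 in the limma fit with the trial, of 0.048 with the slide as a block and of 0.032 with the scan session as a block. Cox4i2, an isoform of Cox4 known from lung, was the only member above 0 in males (log2 fold change 0.07, SE 0.31), and was well above background on 8 of the 15 arrays. Its value was -0.01 under quantile normalization and -0.22 with trial 1 arrays only.

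**Figure D3:**
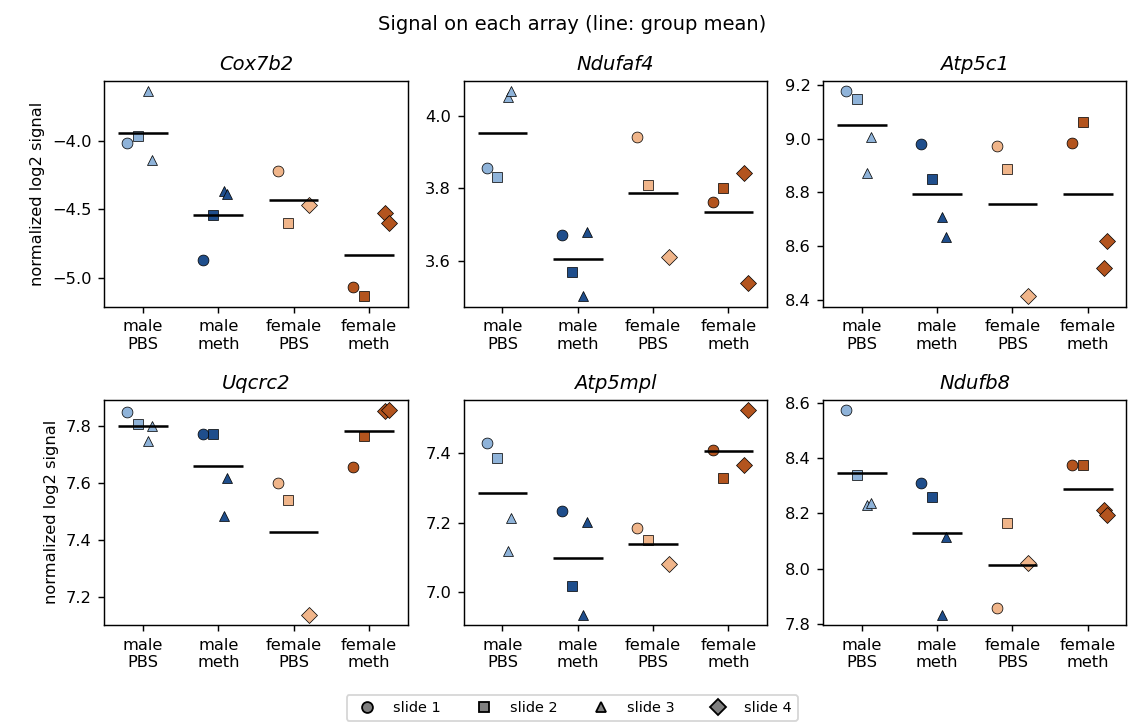
Normalized log2 signal of 6 genes on each of the 15 arrays by group, with a marker for the slide and a line at the group mean. Cox7b2 and Ndufaf4 separate male meth from male PBS hearts, and Uqcrc2, Atp5mpl and Ndufb8 separate female meth from female PBS hearts, while Atp5c1 overlaps in both sexes.

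In females the members leaned the other way by less. Of the 92 genes, 75 had a log2 fold change above 0 (median 0.08, a ratio of 1.05), beside a median of 0.03 over all genes and of 0.06 over the 560 other bright genes. None passed the threshold, where 0.443% of all genes did. At an unadjusted p under 0.05, 5 members were higher (5.43%, against 4.44% of all genes) and 1, Cox7b2, was lower. The methods' t-test counted 14 members when paired (15.2%, against 8.9% of all genes) and 4 unpaired (4.35%, against 6.4% of all genes) at their threshold, and 0 after adjustment. In 4 members, Atp5l, Atp5mpl, Ndufb8 and Uqcrc2, every female meth heart was above every PBS heart (4.35%, against 4.21% of all genes). Except under the paired test, these shares were near those of all genes.

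The female median rested on single arrays. It was 0.01 without female PBS replicate 3, 0.04 without female meth replicate 2, 0.12 without female meth replicate 4 and 0.14 without female PBS replicate 1. Within slides it was 0.02 on slide 1 (49 of 92 genes above 0), 0.18 on slide 2 (89) and 0.12 on slide 4 (81), and the fit with replicate pairs as a block gave 0.12. Under quantile normalization it was -0.0008, with 46 of 92 genes above 0, and under cyclic loess -0.0002, with 45 above 0. The array scores were 0.06, 0.13, -0.05 and -0.14 in female meth hearts and 0.05, -0.05 and -0.24 in female PBS hearts, so the groups overlapped and the hearts on slide 4 were the lowest of each.

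Uqcrc2, a core protein of complex III, had the lowest p in females. Its signal was 7.66, 7.77, 7.85 and 7.86 in female meth and 7.60, 7.54 and 7.14 in female PBS hearts. Every meth heart was above every PBS heart, with the PBS heart on slide 4 far below the others. The log2 fold change was 0.36 (SE 0.11, limma adjusted p = 0.171). Atp5h, subunit d of the ATP synthase stalk, had 8.70, 8.70, 8.64 and 8.87 in female meth and 8.66, 8.15 and 8.35 in female PBS hearts, a log2 fold change of 0.34 (SE 0.11, limma adjusted p = 0.208), with overlapping groups. Its other probe gave 0.09, and without female PBS replicate 2 the value was 0.22. Atp5mpl, a small membrane subunit of the ATP synthase, had 7.41, 7.33, 7.37 and 7.53 against 7.19, 7.15 and 7.08. Its groups did not overlap, and the log2 fold change was 0.27 (SE 0.09, limma adjusted p = 0.228).

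**Figure D4:**
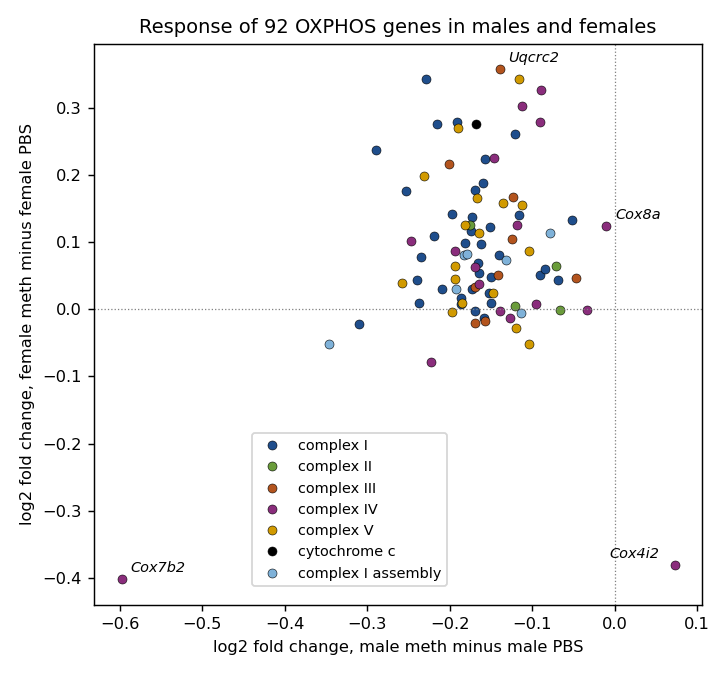
Log2 fold change of meth against PBS in males (x axis) and in females (y axis) for the 92 tested genes, coloured by complex. All genes but Cox4i2 lie left of 0 on the x axis, and 75 of 92 lie above 0 on the y axis.

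Whether the response differed between the sexes was tested as the male log2 fold change minus the female one. It was below 0 for 91 of the 92 genes, with a median of -0.24, beside -0.04 over all genes and -0.15 over the other bright genes. No member passed the threshold, where 0.155% of all genes did, and the limma fit found 25 lower at an unadjusted p under 0.05 (27.2%, against 4.54% of all genes). The methods' t-test has no such contrast. Under cyclic loess the median was -0.09, with 63 of 92 genes below 0, and the other bright genes stood at 0.01. There 3 members had an unadjusted p under 0.05 in either direction (3.26%, against 6.41% of all genes). Complex V and complex I had medians of -0.27 and -0.26, complexes III and IV of -0.20 each, and complex II of -0.13, but under cyclic loess complexes II and III stood at 0.02 and 0.006.

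The lowest p-values of this difference belonged to Atp5mpl (-0.46, SE 0.12, limma adjusted p = 0.336), Ndufb8 (-0.49, SE 0.14, adjusted p = 0.354), an accessory subunit in the membrane arm of complex I, and Uqcrc2 (-0.50, SE 0.14, adjusted p = 0.393). In Ndufb8 the female meth hearts had 8.38, 8.38, 8.21 and 8.19 and the female PBS hearts 7.86, 8.17 and 8.02, without overlap. The male meth hearts had 8.31, 8.26, 7.83 and 8.12 and the male PBS hearts 8.58, 8.34, 8.23 and 8.24, with overlap. Cox4i2 was again the only gene on the other side (0.45, SE 0.45).

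Male PBS hearts had higher values than female PBS hearts in 91 of 92 genes. The median log2 fold change was 0.27 (a ratio of 1.21), beside 0.01 over all genes and 0.17 over the other bright genes. No member passed the threshold, where 0.549% of all genes did. In the limma fit 42 members were higher at an unadjusted p under 0.05 (45.7%, against 8.43% of all genes) and 0 lower, and the methods' t-test was not run between the sexes. In 16 members every male PBS heart was above every female PBS heart (17.4%, against 8.62% of all genes).

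This comparison leaned on how trial and slide were handled, since the female hearts were in trial 1 and 1 of the 3 female PBS hearts was on slide 4. Within slide 1 the median difference was 0.16 and within slide 2 it was 0.23, with 1 male and 1 female PBS heart on each. The median was 0.19 without the trial term, 0.20 with the slide as a block and 0.19 without female PBS replicate 3. Quantile normalization and cyclic loess gave 0.10 each, with the other bright genes at 0.02 and 0.01. Under these 2 the members at an unadjusted p under 0.05 (either direction) were no more frequent than other genes. Quantile normalization had 9 (9.78%, against 13.0% of all genes) and cyclic loess 8 (8.70%, against 13.0%). By complex the medians were 0.30 (I), 0.29 (III), 0.25 (II), 0.25 (IV) and 0.25 (V).

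Ndufb6, an accessory subunit of complex I whose promoter is printed above, had the lowest p here. It had 6.67, 6.61, 6.36 and 6.38 in male PBS and 6.38, 6.07 and 6.11 in female PBS hearts. The groups overlapped at 1 female heart, and the log2 fold change was 0.43 (SE 0.10, limma adjusted p = 0.0859). Ndufb8 followed with 0.46 (SE 0.11, adjusted p = 0.0875) and Uqcrc2 with 0.44 (SE 0.12, adjusted p = 0.119), both without overlap. When arrays were centred on their median instead of the 75th percentile, Ndufb8 passed the threshold (0.59, limma adjusted p = 0.047). That centring moved the median of all genes in this comparison to 0.13. Cox4i2 was the only member below 0 (-0.49, SE 0.36).

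Between male and female meth hearts the direction depended on the fit. The median was 0.03, with 53 of 92 genes above 0. No member passed the threshold, where 2.8% of all genes did, and limma gave 1 at an unadjusted p under 0.05, Atp5mpl (1.09%, against 18.6% of all genes). The sign of this median turned with the batch term: it was -0.04 without the trial term and -0.08 with the slide as a block, where 71 of 92 genes were below 0. Within slide 1 the median was -0.04 (55 of 92 below 0) and within slide 2 it was -0.10 (76 of 92). Atp5mpl had a log2 fold change of -0.24 (SE 0.09, limma adjusted p = 0.196), Ndufaf2, an assembly factor of complex I, -0.17 (SE 0.08, adjusted p = 0.302), and Atp5g2, a subunit of the rotating c ring, -0.18 (SE 0.09, adjusted p = 0.322).

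**Figure D5:**
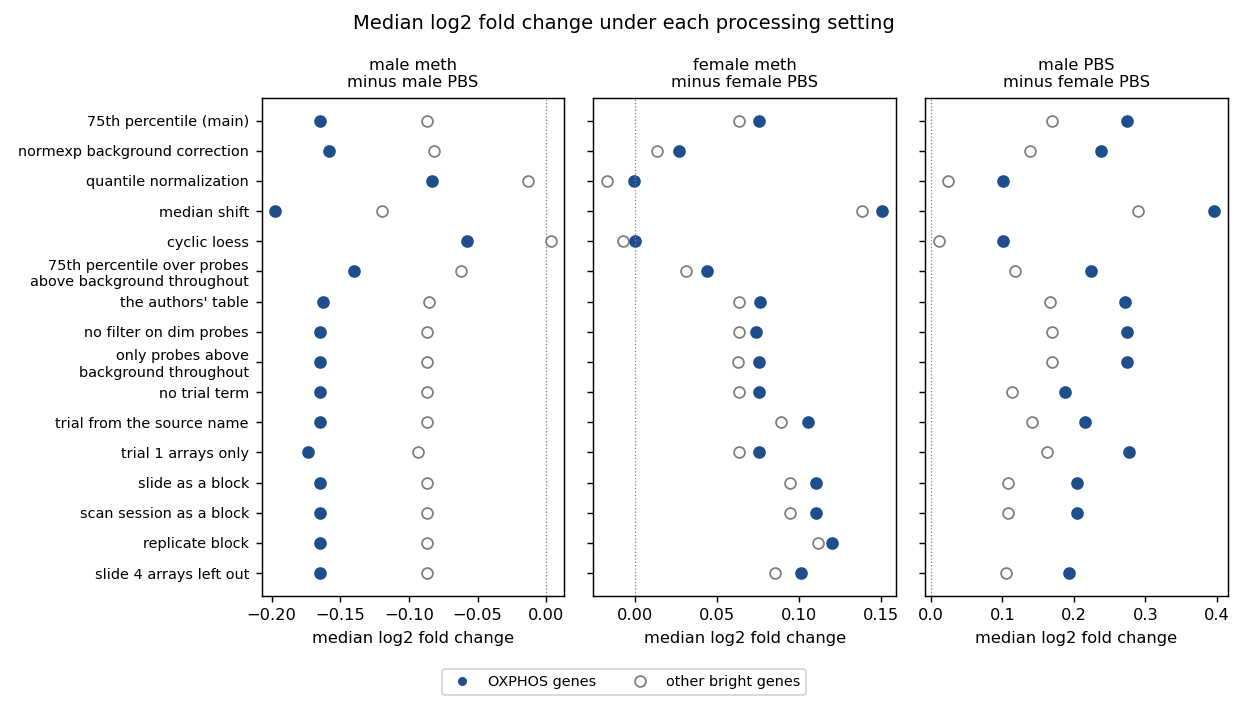
Median log2 fold change of the 92 OXPHOS genes (filled) and of the 560 other bright genes (open) under each processing setting, in 3 comparisons; the settings that add the replicate block give no male against female value. In males the members stay below 0 in each setting, from -0.20 to -0.06, and in females they stand at -0.0008 under quantile normalization and -0.0002 under cyclic loess.

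The paired isoforms of complex IV were each tested by themselves, and the ratio within a pair was not tested. Cox6a2, the heart and muscle form, had a signal of 9.57 ± 0.12 in male meth, 9.70 ± 0.07 in male PBS, 9.52 ± 0.26 in female meth and 9.53 ± 0.25 in female PBS hearts (mean ± SD, n = 4, 4, 4 and 3). Its counterpart Cox6a1 had 7.63 ± 0.20, 7.72 ± 0.14, 7.57 ± 0.17 and 7.56 ± 0.18 in the same order. Cox7a1, the heart and muscle form, had 9.23 ± 0.18, 9.46 ± 0.12, 9.21 ± 0.25 and 9.28 ± 0.20. Cox7a2 had 7.85 ± 0.16, 8.01 ± 0.27, 7.96 ± 0.41 and 7.92 ± 0.24. No member of these pairs passed the threshold in males or females (limma).

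Cox8a had 6.29 ± 0.07, 6.30 ± 0.07, 6.40 ± 0.12 and 6.27 ± 0.01 in the same order of groups. The muscle form Cox8b had 8.66 ± 0.20, 8.75 ± 0.16, 8.79 ± 0.12 and 8.67 ± 0.27, but with 3 male PBS hearts, since its spot on trial 1 replicate 1 was marked an outlier by the scanner software and left out. The male log2 fold change was -0.12 (SE 0.14) without it and 1.21 in the deposited series table, where it is kept. A fit that puts back this spot alone was not made. Cox4i1, the main form of Cox4, had 8.93 ± 0.24, 9.02 ± 0.08, 9.21 ± 0.18 and 8.89 ± 0.18. Cox4i2 stood near background with -4.94 ± 0.39, -5.01 ± 0.11, -5.06 ± 0.70 and -4.68 ± 0.50. Cox6b1 had 5.49 ± 0.13, 5.66 ± 0.05, 5.49 ± 0.08 and 5.43 ± 0.07, and Cox6b2, known from testis, -1.06 ± 0.29, -0.96 ± 0.16, -0.80 ± 0.32 and -1.08 ± 0.50.

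Core subunits of the other complexes are given in the same order (male meth, male PBS, female meth, female PBS; normalized log2 signal, mean ± SD). Ndufs1, an iron-sulfur subunit of complex I, had 7.14 ± 0.27, 7.37 ± 0.05, 7.17 ± 0.38 and 6.93 ± 0.46, also with 1 male PBS spot left out. Ndufv1, which binds NADH, had 7.56 ± 0.19, 7.61 ± 0.09, 7.62 ± 0.20 and 7.48 ± 0.12. Ndufa4, first described in complex I and later placed in complex IV, had 7.59 ± 0.18, 7.79 ± 0.26, 7.68 ± 0.22 and 7.53 ± 0.19. In these 3 genes the highest mean was that of male PBS or female meth hearts, and none passed the threshold.

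In complex II, the flavoprotein Sdha had 5.25 ± 0.16, 5.32 ± 0.04, 5.24 ± 0.16 and 5.18 ± 0.11, and the iron-sulfur subunit Sdhb 7.18 ± 0.09, 7.35 ± 0.07, 7.25 ± 0.09 and 7.12 ± 0.07. In Sdhb the lowest male PBS heart was level with the highest male meth heart. In complex III, the core protein Uqcrc1 had 7.81 ± 0.12, 7.93 ± 0.11, 7.77 ± 0.15 and 7.66 ± 0.17, the Rieske protein Uqcrfs1 7.56 ± 0.16, 7.60 ± 0.26, 7.50 ± 0.26 and 7.46 ± 0.22, and Cyc1 7.59 ± 0.21, 7.71 ± 0.16, 7.74 ± 0.20 and 7.57 ± 0.12.

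Cytochrome c itself (Cycs) had 7.59 ± 0.11, 7.76 ± 0.13, 7.74 ± 0.25 and 7.47 ± 0.19. Cox5a of complex IV had 9.06 ± 0.16, 9.19 ± 0.11, 9.003 ± 0.28 and 9.02 ± 0.30. The core ATP synthase subunits had 8.68 ± 0.16, 8.79 ± 0.08, 8.47 ± 0.35 and 8.52 ± 0.23 (Atp5a1) and 9.11 ± 0.14, 9.22 ± 0.11, 8.97 ± 0.35 and 8.89 ± 0.26 (Atp5b). Atpif1, the inhibitor of that enzyme, which the rule does not take in under this symbol, had 7.09 ± 0.10, 6.96 ± 0.19, 7.04 ± 0.27 and 7.03 ± 0.17. The male PBS mean was the highest of the 4 in all of these but Atpif1.

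Of 5 other mitochondrial gene lists, 0 genes passed the threshold in either meth comparison (limma). Their male medians were below 0, and their female medians above 0 except for the carriers. Assembly factors of the complexes (41 tested, 7 of them also members) had a male median of -0.13, with 7 lower at an unadjusted p under 0.05, and a female median of 0.07. The large subunit of the mitochondrial ribosome (48 genes) had -0.14 with 11 lower, and 0.05. The tricarboxylic acid cycle with pyruvate dehydrogenase (17 genes) had -0.10 with 0 lower, and 0.07. Carriers, porins and uncoupling proteins (15 genes) had -0.07 with 1 lower and 1 higher, and -0.02. At that unadjusted p, 5.84% of all genes were lower in males.

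Regulators of mitochondrial biogenesis (19 genes) had a male median of -0.12 with 3 lower at an unadjusted p under 0.05 (against 5.84% of all genes). The female median of the 19 was 0.02. Those 3 were Ppargc1b (-0.24 in males, -0.09 in females), Esrra (-0.24 and 0.02) and Pprc1 (-0.22 and 0.12). Ppargc1a, the coactivator that drives mitochondrial biogenesis, had a log2 fold change of -0.26 in males and -0.19 in females (adjusted p = 0.438 and 0.724, limma). Nrf1 had -0.05 and -0.04, Gabpa, the DNA-binding part of GABP, -0.13 and -0.14, and Tfam, which packages mitochondrial DNA, -0.13 and -0.07. None of these passed. For male against female PBS the list medians were 0.21 (assembly factors), 0.16 (ribosome), 0.29 (tricarboxylic acid cycle), 0.28 (carriers) and 0.07 (regulators), with 0 genes past the threshold. Between male and female meth hearts 1 of the 19 regulators and 1 of the 48 ribosome genes passed, where 2.8% of all genes did. In the other lists 0 passed. The 2 genes were Pprc1, a relative of Ppargc1a, lower in males (-0.49, limma adjusted p = 0.00565), and Mrpl52, also lower in males (-0.35, adjusted p = 0.0462).

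Markers of cells that differ in mitochondrial content were set beside these values. The 12 cardiomyocyte markers had medians of -0.07 in males, 0.03 in females and 0.17 for male against female PBS, with 0 past the threshold in any comparison. Among them Myh7, the slow myosin heavy chain, had 1.34 in males without passing, and the mean of their signals ran from 7.73 to 8.27 over all arrays. Brown fat markers (7 genes, of which Cox8b is a member) had a mean signal between 0.41 and 1.15 on male PBS arrays and between 0.70 and 2.31 on male meth arrays. On female PBS arrays it was between 0.25 and 1.35 and on female meth arrays between 1.07 and 1.48. The mean on male PBS trial 1 replicate 1 was taken without Cox8b, whose spot was left out there. Its signal was 8.61 to 8.93 on the other male PBS arrays. Leaving out a gene this bright lowers the mean, so the male PBS and male meth ranges are not like for like. For male against female PBS the median of the brown fat markers was 0.77, with 4 of 7 higher at an unadjusted p under 0.05 (against 8.43% of all genes). Of these markers, 0 passed the threshold in any comparison. White fat markers (5 of 6 tested) had male and female medians of 1.11 and 1.37, and of 0.87 for male against female PBS, and 1 of them, Cfd, rose in males. Atrial markers (4 genes) had medians of 0.10 in males, 0.37 in females and 0.52 for male against female PBS, with 0 past the threshold. Skeletal muscle markers (7 of 8 tested) had medians of -0.14 in males, -0.09 in females and 0.14 for male against female PBS. Of these, 1 passed as lower in males (limma adjusted p = 0.0243), where 1.34% of all genes passed. Their part in the results was not tested.

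Several genes had more than 1 probe. For 20 members, 26 further probes were tested beside the brightest, and 25 of the 26 had the sign of the brightest probe in males, with a median log2 fold change of -0.15. In females 17 of 26 had the same sign, and for male against female PBS 25 of 26. None of these probes passed the threshold in any of the 5 comparisons.

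Intervals of single genes, unadjusted for their number, limit how large a change could have gone unseen. They do not cover differences between normalizations. In males their median half-width was 0.23, beside a median log2 fold change of -0.16. The 95% interval of the male log2 fold change lay within -1 and 1 for all 92 genes and within -0.5 and 0.5 for 72. In females this held for 91 and 74 genes, in the difference between the responses for 87 and 17, and for male against female PBS for 88 and 30. The pooled SD between hearts of a group had a median of 0.17 over the members tested.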

How the data were processed

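RNA from each heart was hybridised to a one-colour Agilent mouse array. The submitters' processing notes name Agilent Feature Extraction 9.1 and the file headers version 10.5.1.1. The intensity used was the processed signal deposited for each spot, which that software had background-subtracted. The deposited series table holds the authors' log2 values of the same arrays, and was used as an alternative. On each array its log2 values lay within 0.1 of a constant offset from the deposited log2 signal for 100% of probes, with medians of 5.19 to 5.38 and a 75th percentile of 8.39 to 8.396. What that common level stands for is not given in the sources used here.

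Here the log2 signal was shifted by each array's 75th percentile, control spots and outlier-flagged spots were left out, and a probe was tested if 3 or more of the 15 arrays had it well above background (28358 of 41174 probes). A gene was its brightest probe. The model in limma 3.58.1 (R 4.3.3) had the 4 groups and the trial, and 5 contrasts. Adjusted p-values (Benjamini-Hochberg) were taken over the 28358 probes, and under 0.05 a gene was said to pass. Exact two-sided permutation tests over arrays cannot give a p under 0.0286. Array number, 1 mouse to each, limits the precision, and p-values measure the spread between these arrays. Members are not replicates. Symbols came from RefSeq through each probe's accession. Scripts were tested on simulated data, and Python 3.11.15 and matplotlib 3.10.9 were used for tables and plots.

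Genes named with their fold change were the 3 with the lowest p in each comparison, since none passed the threshold, and others are given from a fixed list. The members and lists were chosen with earlier results of these data known. Arrays with the same replicate number shared a slide, and the paired fits took these numbers as pairs, which is an assumption. Their deviations from the group means correlated over 23808 probes (0.33, 0.27, 0.26 and 0.40 in males, 0.30, 0.44 and 0.66 in females). Those group means ran over trials and slides, so that arrays of a shared trial or scan session can correlate whatever their number. Male arrays of the same trial with different numbers correlated much as highly (0.33, 0.365, 0.30 and 0.33). Female arrays on slides 1 and 2 correlated more highly with different numbers (0.63 and 0.54) than with the same number. The correlations therefore cannot show that the numbers pair the arrays. Source names place female meth replicates 3 and 4 and female PBS replicate 3 in trial 2, against their titles, which were followed. Alternatives were normexp background correction on the median pixel signal, 4 other normalizations, other filters, trial, slide, scan session and replicate blocks, the methods' t-test and each array left out. Leaving out the arrays of slide 4 was chosen after seeing the data.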

Additional observations from a re-analysis of the deposited data

Results flagged for a closer look

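In 5 of 124 groups of 4 hearts tested, the highest or the lowest heart stood apart from the other 3 by more than 0.829 of the group's range. Chance flags about 1 in 20 such groups. Male meth trial 2 replicate 1 was the low heart in 3 of them: its complex IV score was -0.244 beside 0.01, 0.02 and 0.04, its Atp5b signal was 8.90 beside 9.16, 9.19 and 9.21, and its Cox4i1 signal was 8.57 beside 9.02, 9.06 and 9.07 (normalized log2). Without that heart the male median over all members was -0.12. Cox6a2 had 9.597 in male PBS trial 2 replicate 1 beside 9.73, 9.74 and 9.75. Uqcrc1 had 7.995 in female meth replicate 2 beside 7.66, 7.69 and 7.72.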

How the results depend on the processing

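The count of 0 members past the threshold held in females, in the difference between the responses and between male and female meth hearts under every alternative run. In males it was 1 with the slide as a block and 1 with the scan session as a block, Atp5c1 (-0.26) in both. Between male and female PBS hearts it was 1 with arrays centred on the median, Ndufb8 (0.59). With replicate pairs as a block, 0 members were called in males, in females and in the difference, with 47, 23 and 65 at an unadjusted p under 0.05 (51.1%, 25% and 70.7%, against 18.7%, 11.2% and 14.6% of all genes). The contrasts between sexes cannot be had from that block. Leaving out each array in turn gave medians from -0.21 to -0.12 in males, 0.01 to 0.14 in females, -0.31 to -0.18 in the difference, 0.19 to 0.34 between PBS hearts and -0.02 to 0.07 between meth hearts. Male Cox4i2 turned to -0.0062 under quantile normalization, to -0.22 in trial 1 arrays only, and ranged from -0.050 to 0.17 with an array left out. Its difference between the responses was -0.10 under normexp. Male Cox8b was 1.21 in the deposited series table. The cause was not tested, except that this table keeps a spot left out here. Among all named genes, 26 of 832 male values and 66 of 802 female values had the other sign. Without slide 4, a setting chosen after seeing the data, the medians were -0.16 in males, 0.10 in females, 0.19 between PBS hearts and -0.07 between meth hearts.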
